A study of Oncorhynchus mykiss with 20 samples.

Results

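The development of the gut was followed in the Select strain of rainbow trout (Oncorhynchus mykiss), by comparing the RNA of whole intestines at 65 days post hatch (dph) with that at 20 dph. The comparison rests on 10 of the 20 libraries of the study, 5 at 65 dph and 5 at 20 dph, chosen by the strain and age that the labels give. All Select fish belonged to an all-female line selected by breeding, which the labels also call ARS-KO. They were kept in flow-through spring water and fed a starter diet for trout until sampling at either age. The other 10 libraries came from an all-female Commercial strain of the same 2 ages, on the same diet but moved to other raceways at hatching, so strain and raceway cannot be told apart where the strains are set side by side. Every library is a biological replicate per the labels, which do not say whether a library holds 1 fish or several, so p-values measure the spread between these samples. That spread was estimated from all 20 libraries, those of the Commercial strain included.

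The intestine of a fish fry takes over digestion from the yolk soon after hatching. Its lining is a single sheet of enterocytes whose brush border carries peptidases and transporters, with mucus-secreting and hormone-producing cells between them, muscle, nerves and connective tissue beneath, and lymphocytes that settle among the epithelial cells as the fish grows. Pancreatic tissue of trout lies scattered in the fat around the gut, and liver lies against it, so a whole intestine can carry RNA of both.

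The Select libraries held 7314588 to 13682738 expected counts each at 65 dph and 8115051 to 9791826 at 20 dph. Genes with a symbol took 23.4% of the reads of the series, genes with only a LOC number 43.1%, and transcripts that could not be paired with a gene 33.5%, so named genes describe a minority of the RNA. The first principal component of log2 CPM (counts scaled to a library's depth) held 32.4% of the variance of the 10 libraries and separated the ages, with 77.36 to 104.24 at 65 dph and -113.17 to -69.92 at 20 dph. The second held 13.3% and set 1 library apart, 20 dph replicate 1, at 155.02 against -55.34 to 33.73 in the other 9. The summed level of 11 tested liver genes was 13965 CPM in that library, against 499 to 791 CPM in the other 20 dph libraries and 277 to 447 CPM at 65 dph. For 5 skeletal muscle genes the sum was 1048 CPM there, against 28.1 to 43.5 CPM in the other 20 dph libraries and 24.5 to 44 CPM at 65 dph. List counts that differ without 20 dph replicate 1 are therefore given both ways. One Commercial library of 65 dph, replicate 2, and Select 65 dph replicate 5 resembled each other (correlation of log2 CPM 0.907) more than their own groups. The Commercial library correlated at 0.836 to 0.842 with the rest of its group. Select 65 dph replicate 5 correlated at 0.864 to 0.871 with the other Select 65 dph libraries. Calls were also counted without both.

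Of the markers of enterocytes, fabp2, anpepb and vil1 were abundant at both ages, while mep1b had no counts at 65 dph. The marker slc15a1a was called lower at 65 dph, and both are described below. The intestinal fatty acid binding protein fabp2 had the highest TPM of all genes with a symbol at both ages, 9691 ± 2146 TPM at 65 dph and 12196 ± 2030.3 TPM at 20 dph (SD, n = 5 each). TPM is a level scaled for transcript length and depth. The brush border peptidase anpepb stood at 5539 ± 782 CPM at 65 dph and 5675 ± 1580.0 CPM at 20 dph, and the microvillus protein vil1 at 2253 ± 357 and 2829 ± 544 CPM in the same order. The gene fabp2 was called lower at 65 dph (log2 fold change -0.76 ± 0.17, adjusted p = 0.00179). With all libraries vil1 did not pass (-0.33, adjusted p = 0.0763), but it was called lower without 20 dph replicate 1 (-0.45), without 65 dph replicate 1 (-0.44) and by DESeq2 (-0.33). The intestinal transcription factor cdx1 was measured at 14.8 ± 2.39 CPM at 65 dph and 10.6 ± 3.11 CPM at 20 dph. In 20 dph replicate 1, vil1 and cdx1 were the lowest among the 20 dph libraries, at 1871 and 5.16 CPM. Among the transcripts highest by TPM at 65 dph were also the products of frih (a ferritin chain), the metal-binding mt2, the apolipoproteins apoa-i-2 and apoa-i-1, the lysosomal protease ctsbb, actb and hspa8. The list at 20 dph held gpx4a, apoa2 and acbp in place of ctsbb, anpepb and hspa8. The gene apoa2 stood at 6647 CPM in 20 dph replicate 1, far above the other 20 dph libraries, so its high mean rests on that library.

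Expression changed with age in a large share of the transcriptome. Of 32166 features tested, 11019 (34.3%) had an adjusted p under 0.05 (edgeR quasi-likelihood test, Benjamini-Hochberg adjustment over all features), the threshold used for every call here. At 65 dph 5264 features (16.4%) were higher and 5755 (17.9%) lower, and 5349 of the calls exceeded a log2 fold change of 1 in size. The groups did not overlap for 8104 features (25.2%). Genes with a symbol were more often lower, with 1605 of 5297 tested (30.3%) against 760 higher (14.3%), and their median log2 fold change was -0.16 against 0.07 over all features. On TPM with no further scaling (limma on log2 of TPM + 0.1) 12043 features were called higher and 2528 lower. The median log2 fold change of all features was 0.50 on that scale and not 0.07, and with TMM scaling of the TPM the counts were 5880 and 5445. Of the called genes whose fold change the text gives, slc15a1a, slc31a1, rpl10, rps8a, foxp3-1, psme2, tgfb2, notch1, cahz, c9, hpxb, myl1, antiprot1 and pfc were not called on unscaled TPM. Genes named without a fold change are not in that list, and the exocrine pancreas list had 3 lower calls on unscaled TPM in place of 4. The shares among symbol genes are the background for every list count that follows, except those on unscaled TPM. Those are to be read beside the 12043 higher and 2528 lower of all 32166 features on that scale. Without 20 dph replicate 1, 690 of 5343 symbol genes were called higher (12.9%) and 1514 lower (28.3%).

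The genes were then grouped in 39 lists by function or cell type. Of 712 members found in the files, 591 passed the filter on low counts and were tested. Among the tested members 16 stand in 2 or more lists. In the plot of list counts, energy metabolism, sterol synthesis, cell division and ribosome assembly lie on the lower side. Most immune, connective tissue and signalling lists lie on the higher side, with complement (1 higher, 5 lower) and gut hormones (1 higher, 3 lower) as exceptions. Fewer cells of a type and less RNA per cell cannot be told apart in such bulk samples, for any of the lists.

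**Figure D1:**
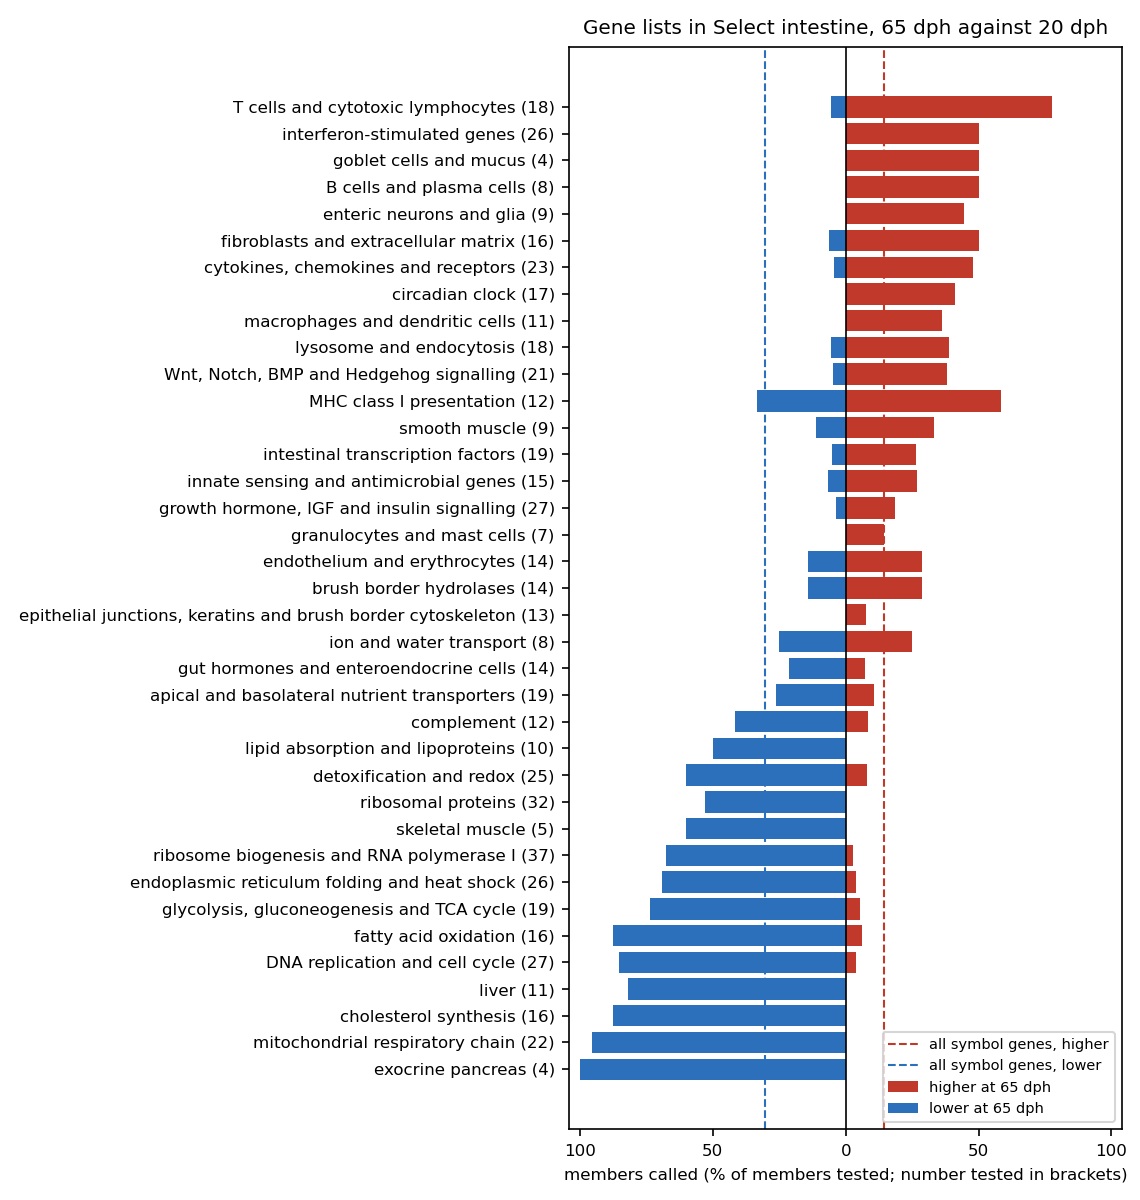
Share of tested members called higher (red, right) or lower (blue, left) at 65 dph than at 20 dph in Select intestine, for each list with 4 or more tested members; the number tested stands in brackets and dashed lines mark the shares over all symbol genes (14.3% higher, 30.3% lower). The mitochondrial respiratory chain list has 21 of 22 members lower, and the T cell list 14 of 18 higher.

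Water channels gave some of the widest changes, and in opposite directions. The channel aqp8a.2, of the aquaporin 8 group that passes water across intestinal epithelium, had 27.9, 64.9, 48.5, 74.8 and 24.2 CPM in the 5 libraries at 65 dph, against 0.287, 0.125, 0.218, 0.731 and 1.35 CPM at 20 dph (log2 fold change 6.43 ± 1.12, adjusted p = 0.000268). The ± after a log2 fold change is its approximate standard error throughout. Every 65 dph library lay above every 20 dph library, and the gene led the increases among symbol genes whose mean log2 CPM reached 1 and whose groups were apart. The water and glycerol channel aqp10a went the other way, with 1.2, 0.202, 4.76, 0.119 and 1.87 CPM at 65 dph, against 194, 224, 80.2, 97.6 and 79.3 CPM at 20 dph (log2 fold change -6.27 ± 0.74, adjusted p = 7.52e-06). All 65 dph libraries were under 5 CPM and all 20 dph libraries above 79 CPM, and replicates 1 and 2 were the highest of the younger group. A second glycerol channel, aqp3a, fell too (log2 fold change -2.07 ± 0.53, adjusted p = 0.00538), although its groups overlapped at 2.73 CPM in 65 dph replicate 2 and 2.68 CPM in 20 dph replicate 4. The copy aqp10b did not pass the test (-0.40, adjusted p = 0.15) but was called lower without 20 dph replicate 1 (-0.57), and aqp7 (0.56) was called when 65 dph replicate 2 was left out (0.70) but not without any other 1 library. In turn slc9a1a, a sodium and proton exchanger that regulates cell pH, rose (log2 fold change 0.65 ± 0.15, adjusted p = 0.00241). In the list of ion and water transport 2 of 8 tested members were higher and 2 lower, or 2 and 4 without 20 dph replicate 1. Over all symbol genes 14.3% were higher and 30.3% lower. With so few members the counts are not read as a result about the list.

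Most tested digestive enzymes of the brush border did not pass the test, but a few digestive genes changed by orders of magnitude. The meprin subunit mep1b, a metalloprotease of the brush border, had 0 counts in all 5 libraries at 65 dph, against 136, 178, 28, 27.2 and 9.22 CPM at 20 dph. It was at least 1343-fold lower at 65 dph, taking 3 counts over the group as the floor (adjusted p = 0.0022), or at least 1076-fold without 20 dph replicate 1 and 889-fold without 20 dph replicate 2. The acidic chitinase chia.1, an enzyme that cuts the chitin of crustaceans and insects, had 0.769, 0.708, 16.9, 0.119 and 0.468 CPM at 65 dph, against 1068, 1609, 336, 514 and 95.5 CPM at 20 dph (log2 fold change -7.49 ± 1.2, adjusted p = 0.000121). At 65 dph replicate 3 stood above the other 4, and without it the log2 fold change was -10.37. The enteropeptidase tmprss15, which activates trypsinogen on the brush border, fell by less, with 183, 147, 141, 121 and 123 CPM at 65 dph, against 257, 342, 263, 424 and 211 CPM at 20 dph (log2 fold change -1.07 ± 0.24, adjusted p = 0.00205). By contrast the other meprin subunit mep1a.2 (0.26, adjusted p = 0.35), the aminopeptidase anpepb (-0.03, adjusted p = 0.912) and the alkaline phosphatase alpi.2 (-0.29, adjusted p = 0.362) did not pass the test. Of 14 tested brush border hydrolases 4 were called higher and 2 lower. The higher calls numbered 0 without 20 dph replicate 1, 65 dph replicate 2 or 65 dph replicate 3, and 1 or 2 when any other 1 library but 20 dph replicate 5 was left out. Without 20 dph replicate 1 the counts were 0 higher and 4 lower, and the median log2 fold change was -0.02 in place of 0.12. The members behind the higher calls (ggt1b, ggt5a, enpep and asah2) are given no direction.

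Pancreatic transcripts were carried unevenly by the libraries and were lower at 65 dph. The summed level of the 4 tested exocrine pancreas genes was 58.3, 239.7, 32.7, 323 and 115 CPM at 65 dph, against 1826, 3252, 194, 609 and 303 CPM at 20 dph. Replicates 2 and 1 of the younger group stood highest, and 20 dph replicate 3 lay below 2 of the 65 dph libraries. All 4 members were called lower, namely rbpjl, cpa5, ela2l and pla2g1b. The calls of ela2l and pla2g1b were lost without 20 dph replicate 2, and that of ela2l also without 65 dph replicate 1 or 5. The acinar transcription factor rbpjl (log2 fold change -3.11 ± 0.71, adjusted p = 0.00238) and the carboxypeptidase cpa5 (log2 fold change -3.59 ± 0.97, adjusted p = 0.00764) kept theirs without any 1 library. The libraries that were high in pancreatic RNA at 20 dph, replicates 2 and 1, were also the highest in mep1b, chia.1 and aqp10a. They were the highest too in the hormone gene cck-n, in selenoe, a fish selenoprotein (log2 fold change -5.37 ± 1.09, adjusted p = 0.00101), and in aqp12. The channel aqp12, which mammals express in pancreatic acinar cells, had 0.342, 0.809, 0.068, 1.43 and 0.468 CPM at 65 dph, against 24.4, 49.5, 1.53, 6.83 and 5.65 CPM at 20 dph (log2 fold change -4.88 ± 0.98, adjusted p = 0.000892). At 65 dph replicate 3, lowest in the pancreatic sum, was the highest library in chia.1 and aqp10a and the lowest in aqp12. Replicate 4, highest in that sum, was the lowest in chia.1 and aqp10a and the highest in aqp12. Some of these ranks at 65 dph are uncertain, since they rest on very few reads. Examples are chia.1 and aqp10a in replicate 4 (0.119 CPM each) and aqp12 in replicate 3 (0.068 CPM). For mep1b no library of that age held a count. The part of pancreatic RNA in these changes was not tested.

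Transporters of nutrients and metals were mostly lower where they were called. Of 19 tested members 5 were lower and 2 higher at 65 dph, with 6 lower and 2 higher without 20 dph replicate 1, shares that lie near or below the background. On unscaled TPM 2 were lower and 3 higher. The largest change was a rise of slc6a18, a carrier of neutral amino acids, with 369, 547, 697, 726 and 414 CPM at 65 dph, against 11.2, 112, 83, 116 and 119.6 CPM at 20 dph (log2 fold change 2.64 ± 0.50, adjusted p = 0.000591). The groups were well apart, and 20 dph replicate 1 was the lowest of all. Without it the log2 fold change was 2.35. The aromatic amino acid carrier slc16a10 also rose (log2 fold change 0.64 ± 0.13, adjusted p = 0.000787), with 145 to 226 CPM at 65 dph, against 98.3 to 128 CPM at 20 dph. The di- and tripeptide carrier slc15a1a (PepT1) fell, with 240.5, 214, 195, 151 and 137 CPM at 65 dph, against 258, 362, 364, 448 and 369 CPM at 20 dph (log2 fold change -0.94 ± 0.20, adjusted p = 0.00133). Metal carriers fell as well, slc11a2 for iron with 26.6, 25, 23.7, 20.9 and 15 CPM at 65 dph, against 65.2, 57.4, 72, 59.9 and 55.6 CPM at 20 dph (log2 fold change -1.48 ± 0.18, adjusted p = 1.13e-05). The copper carrier slc31a1 (log2 fold change -0.90 ± 0.21, adjusted p = 0.00301) and the phosphate carrier slc20a1a (log2 fold change -1.69 ± 0.43, adjusted p = 0.00507) were lower too. The sugar carrier slc5a9 was -0.25 and did not pass (adjusted p = 0.152), except without 65 dph replicate 1 (-0.36).

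**Figure D2:**
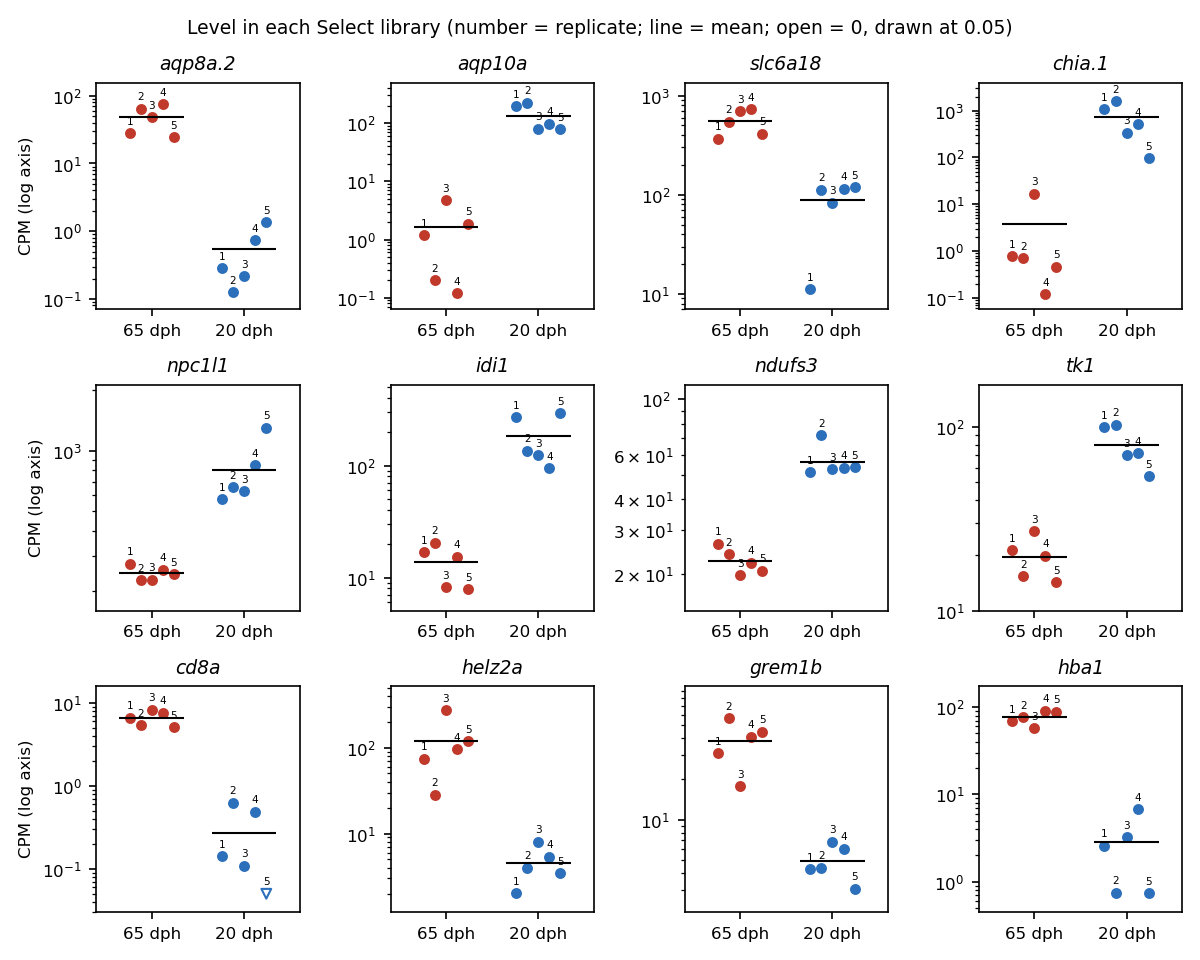
Level of 12 genes in each Select library, in CPM on a log axis, with 65 dph on the left and 20 dph on the right of each panel; points are libraries with their replicate number, lines are means and an open symbol is a library at 0, drawn at 0.05. In all 12 genes the groups do not overlap, and 65 dph replicate 3 stands highest for chia.1 and helz2a.

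Genes of lipid uptake and export that were called were lower at 65 dph. The sterol importer npc1l1, which takes cholesterol from the gut lumen, had 274, 226, 229, 255 and 243 CPM at 65 dph, against 575, 659.7, 628, 846 and 1300.1 CPM at 20 dph (log2 fold change -1.71 ± 0.19, adjusted p = 3.7e-06). The older libraries lay close together, while the younger ones ranged widely, with replicate 5 the highest. The sterol exporters abcg5 (0.06) and abcg8 (-0.09) did not pass the test. Apolipoprotein B (apoba), the backbone of the lipoprotein particles that carry absorbed fat, had 1.71, 1.32, 3.2, 1.07 and 0 CPM at 65 dph, against 728, 55.5, 111, 139 and 60.5 CPM at 20 dph (log2 fold change -7.13 ± 0.85, adjusted p = 7.81e-06). Its highest value by far was in 20 dph replicate 1, and without that library the log2 fold change was -5.87 (adjusted p = 2.58e-06). The same library dominated apoa2, with 3.25, 25.1, 7.01, 6.56 and 6.21 CPM at 65 dph, against 6647, 170.1, 276, 274 and 31.7 CPM at 20 dph (log2 fold change -7.26 ± 1.29, adjusted p = 0.000323). Without it the log2 fold change was -4.29 (adjusted p = 0.000228). The summed liver genes were also higher in the other 20 dph libraries (499 to 791 CPM) than at 65 dph (277 to 447 CPM). The members did not all go that way. Without 20 dph replicate 1, 4 of 11 were called lower and 0 higher. The log2 fold change was then positive, without a call, for c9 (0.82), hpxb (1.74) and rbp4 (0.22). The part of liver RNA in the levels of apoba and apoa2 was not tested. The apolipoproteins A-I fell in both copies named in the files, apoa-i-2 (log2 fold change -1.24 ± 0.21, adjusted p = 0.000197) and apoa-i-1 (log2 fold change -1.69 ± 0.32, adjusted p = 0.000541). The division of reads between these copies is an estimate, so each is uncertain. In the lipid absorption list 5 of 10 tested members fell and 0 rose, with 6 lower without 20 dph replicate 1.

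The enzymes that make cholesterol were lower at 65 dph, as were genes that regulate them. Of 16 tested members of the list 14 were lower and 0 higher, the median log2 fold change being -2.73. The same number was lower without 20 dph replicate 1. The list does not hold enzymes alone, and the sterol carrier stard4, described below, is among the 14. The members that did not pass were lbr (-1.43), which also serves the nuclear envelope, and ggps1 (0.14), which also serves the prenylation of proteins. In 15 of the 16 members, lbr included, every 65 dph library lay below every 20 dph library. The isomerase idi1 had 16.7, 20.5, 8.16, 15.4 and 7.85 CPM at 65 dph, against 269.8, 136, 124, 95.3 and 295 CPM at 20 dph (log2 fold change -3.74 ± 0.41, adjusted p = 4.43e-06). For the decarboxylase mvda the values were 2.39, 2.43, 3.06, 3.58 and 2.11 CPM at 65 dph, against 53.4, 21.3, 17.3, 18.4 and 96.7 CPM at 20 dph (log2 fold change -3.92 ± 0.49, adjusted p = 1.23e-05). In both, replicates 5 and 1 were the highest of the 20 dph libraries, above the other 3, and no 65 dph library came near the younger range. The transcription factor srebf2, which switches the pathway on, fell by less, with 45.8, 43.2, 29.9, 37.8 and 28 CPM at 65 dph, against 142, 82.8, 107, 127 and 231 CPM at 20 dph (log2 fold change -1.9 ± 0.25, adjusted p = 2.12e-05). Its retention partner insig1 (log2 fold change -1.77 ± 0.21, adjusted p = 8.07e-06) and the sterol carrier stard4 (log2 fold change -2.32 ± 0.25, adjusted p = 3.82e-06) fell in the same way, without overlap of the groups. Summed over the list, the level was 307, 294, 229, 306 and 194 CPM at 65 dph, against 2236, 1558, 1453, 1356 and 2733 CPM at 20 dph. Replicate 5 was the highest 20 dph library for 11 of 16 members, and it was also the highest for npc1l1.

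Nearly all tested genes of the mitochondrial respiratory chain, which turns fuel into ATP, fell. Of 22 tested members, 21 were lower at 65 dph and 0 higher, the median log2 fold change being -1.04, and 21 were lower without 20 dph replicate 1. The complex I subunit ndufs3 had 26.5, 24, 19.7, 22.2 and 20.6 CPM at 65 dph, against 51, 71.7, 52.4, 53.3 and 53.5 CPM at 20 dph (log2 fold change -1.32 ± 0.14, adjusted p = 3.78e-06). Similar changes were measured for ndufc1 of the same complex (log2 fold change -1.40 ± 0.17, adjusted p = 7.63e-06) and the iron-sulfur subunit sdhb of complex II (log2 fold change -1.23 ± 0.15, adjusted p = 8.64e-06). They were also measured for atp5mc3b of the ATP synthase (log2 fold change -1.30 ± 0.12, adjusted p = 1.03e-06). In all 4 genes the groups did not overlap. Replicate 2 was the highest 20 dph library in 21 of 22 members, and the summed level was 804, 670.3, 689, 726 and 723 CPM at 65 dph, against 1423, 2062, 1456, 1419.5 and 1423 CPM at 20 dph.

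Fuel-burning pathways went with the respiratory chain. Fatty acid oxidation had 14 of 16 tested members lower and 1 higher (median -1.13), the same counts as without 20 dph replicate 1. The mitochondrial carnitine transferase cpt2 had 53.9, 52, 55.2, 47.7 and 49.8 CPM at 65 dph, against 101, 196, 136, 178 and 130.2 CPM at 20 dph (log2 fold change -1.52 ± 0.17, adjusted p = 4.43e-06). Every 65 dph library lay below every 20 dph library. The rate-setting transferase of the outer membrane, cpt1ab, was 0.24 and did not pass (adjusted p = 0.586). In contrast pparab, a nuclear receptor that activates these genes in mammals, rose, with 54.6, 42.5, 76.3, 67.1 and 54.6 CPM at 65 dph, against 21.9, 16.3, 18.2, 28.5 and 18.6 CPM at 20 dph (log2 fold change 1.51 ± 0.26, adjusted p = 0.000248). In glycolysis and the tricarboxylic acid cycle 14 of 19 members were lower and 1 higher (median -0.88), or 12 and 1 without 20 dph replicate 1. On unscaled TPM 9 were lower and 1 higher. Examples of lower members are the cycle enzymes suclg1 (log2 fold change -1.25 ± 0.16, adjusted p = 1.66e-05) and ogdha (log2 fold change -1.13 ± 0.16, adjusted p = 3.7e-05) and the cytosolic isocitrate dehydrogenase idh1 (log2 fold change -1.92 ± 0.29, adjusted p = 6.41e-05). The glycolytic gapdh fell as well (log2 fold change -1.03 ± 0.21, adjusted p = 0.00101), although 65 dph replicate 5 reached 290.1 CPM and overlapped the younger range.

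Antioxidant and detoxifying enzymes were more often lower than higher in counts scaled by TMM, while an enzyme of heme breakdown rose. Of 25 tested members 15 were lower and 2 higher, and 14 and 2 without 20 dph replicate 1. On unscaled TPM 7 were lower and 7 higher (median -0.16), where 2528 of all 32166 features were lower and 12043 higher (median 0.50). Superoxide dismutase sod1 had 95.7, 75.5, 95.7, 83.6 and 83.6 CPM at 65 dph, against 283, 312, 199, 166 and 238 CPM at 20 dph (log2 fold change -1.46 ± 0.17, adjusted p = 6.91e-06). Catalase cat (log2 fold change -1.22 ± 0.21, adjusted p = 0.000206), glutathione synthetase gss (log2 fold change -1.22 ± 0.16, adjusted p = 1.38e-05) and the glutathione transferase gstz1 (log2 fold change -1.38 ± 0.16, adjusted p = 4.98e-06) fell as well, each with groups apart. Heme oxygenase hmox1a, which degrades heme, rose, with 9.48, 26.6, 11.2, 39.5 and 16.7 CPM at 65 dph, against 1.58, 4.89, 6.54, 4.75 and 1.84 CPM at 20 dph (log2 fold change 2.38 ± 0.44, adjusted p = 0.000478). Replicates 4 and 2 were the highest of the older libraries, and the lowest older library, at 9.48 CPM, was still above the highest younger one, at 6.54 CPM.

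Genes of cell division were lower at 65 dph in most tested members. In the list 23 of 27 were called lower and 1 higher, counts that were the same without 20 dph replicate 1, with a median of -1.42. Thymidine kinase tk1, which supplies a DNA precursor, had 21.3, 15.4, 27.1, 19.9 and 14.3 CPM at 65 dph, against 100.02, 103, 69.9, 71.7 and 53.8 CPM at 20 dph (log2 fold change -2.02 ± 0.26, adjusted p = 1.47e-05). The mitotic regulators birc5a (log2 fold change -2.01 ± 0.27, adjusted p = 2.5e-05) and aurka (log2 fold change -1.88 ± 0.24, adjusted p = 1.46e-05) and the replication helicase subunit mcm7 (log2 fold change -1.56 ± 0.20, adjusted p = 1.67e-05) fell to a like degree, each without overlap of the groups. The only member that rose was cyclin D1 (ccnd1), which drives entry into the cycle, with 38.5, 40.5, 50.8, 43.3 and 29.98 CPM at 65 dph, against 26.4, 26.1, 27.9, 31.2 and 22.2 CPM at 20 dph (log2 fold change 0.60 ± 0.18, adjusted p = 0.0146). Its groups overlapped narrowly in 65 dph replicate 5 and 20 dph replicate 4. Replicate 3 was the highest 65 dph library in 14 of 27 members.

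Genes that build ribosomes were mostly lower too in counts scaled by TMM. Of 37 tested genes of ribosome assembly and RNA polymerase I, 25 were lower and 1 higher (median -0.79), or 23 and 1 without 20 dph replicate 1. On unscaled TPM 12 were lower and 2 higher, with a median of -0.345 against 0.50 over all features. Nucleolin ncl, a major protein of the nucleolus, had 479, 555, 472, 451 and 485 CPM at 65 dph, against 1011, 858, 735, 768 and 851 CPM at 20 dph (log2 fold change -0.79 ± 0.13, adjusted p = 0.000123). The assembly factor bysl (log2 fold change -1.16 ± 0.23, adjusted p = 0.000857) and the polymerase subunit polr1c (log2 fold change -1.21 ± 0.23, adjusted p = 0.000617) fell too, without overlap of the groups. So did the RNA acetyltransferase nat10 (log2 fold change -1.23 ± 0.33, adjusted p = 0.00717). The nucleolar protein gene npm1b stood at 23.7 ± 4.11 CPM at 65 dph and 23.7 ± 2.48 CPM at 20 dph and did not pass. Replicate 1 was the highest 20 dph library in 29 of 37 members.

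Ribosomal protein genes moved less and less evenly. They had 17 of 32 tested members lower and 0 higher, with a median of -0.32 that became 0.13 on unscaled TPM. The count was 10 without 20 dph replicate 2 or 65 dph replicate 2, 11 without 65 dph replicate 1, 3 or 4, and 12 without 20 dph replicate 1. It was 8 when the 10 Select libraries were fitted alone, and on unscaled TPM 6 members were called higher and 0 lower. The gene rpl10 had 241, 166, 218, 278 and 274 CPM at 65 dph, against 327, 479, 356, 290.0 and 346 CPM at 20 dph (log2 fold change -0.61 ± 0.16, adjusted p = 0.00551). The log2 fold change of rps8a was -0.53 (adjusted p = 0.00728). Replicate 2 was the highest 20 dph library in all 32 of 32 members, the same library that led the respiratory chain, and 65 dph replicate 5 was the highest older library in 30.

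Genes of endoplasmic reticulum folding and heat shock were more often lower than higher in counts scaled by TMM. The list also holds cytosolic chaperones, such as hsp90ab1, which was called lower, and hsp70a. In this list 18 of 26 tested members were lower and 1 higher, or 15 and 2 without 20 dph replicate 1. On unscaled TPM 7 were lower and 6 higher, with a median of -0.22 against 0.50 over all features. The translocation subunit ssr3 had 38.4, 32.6, 24.8, 33.5 and 29.9 CPM at 65 dph, against 124, 128, 73.5, 71.6 and 75.5 CPM at 20 dph (log2 fold change -1.57 ± 0.20, adjusted p = 1.39e-05). The chaperone cofactor creld2 was also lower (log2 fold change -1.81 ± 0.25, adjusted p = 2.67e-05). The inducible cytosolic chaperone hsp70a rose, with 17.7, 9.91, 6.53, 8.35 and 8.9 CPM at 65 dph, against 1.58, 2.63, 2.61, 3.66 and 3.2 CPM at 20 dph (log2 fold change 1.9 ± 0.43, adjusted p = 0.00221). Replicate 1 was the highest older library for hsp70a, and the groups were apart.

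**Figure D3:**
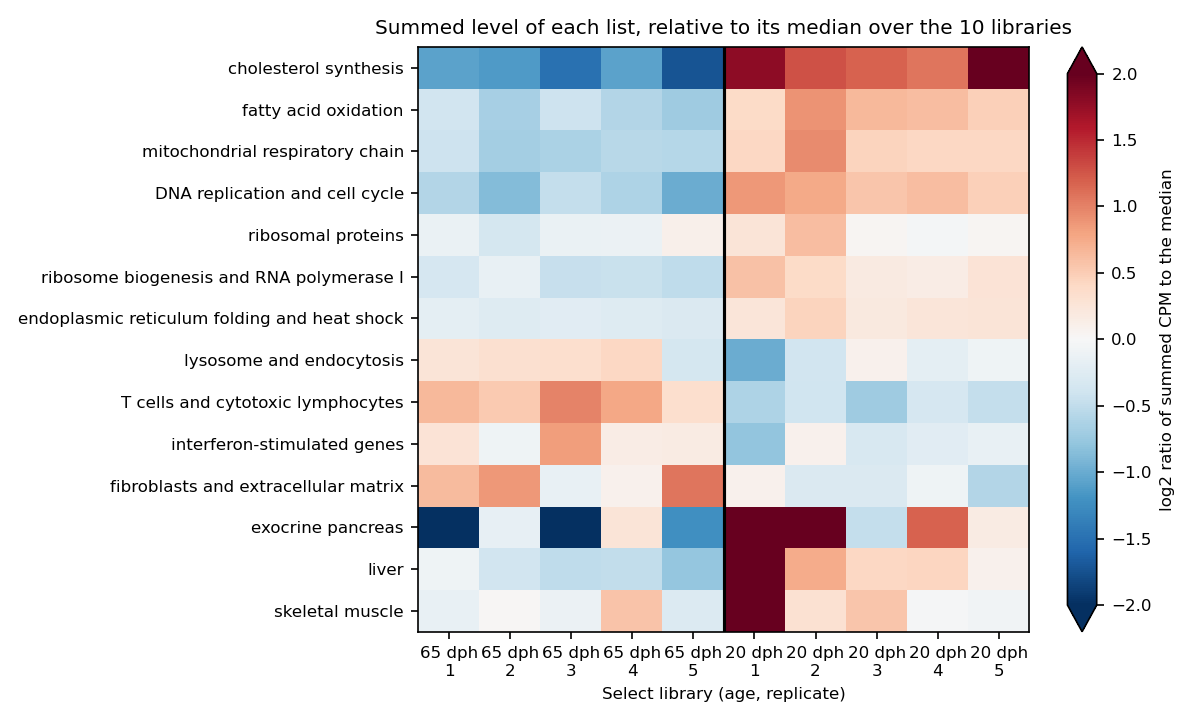
Summed CPM of 14 gene lists in each Select library, as the log2 ratio to the list's median over the 10 libraries (red above, blue below; the scale ends at 2 in either direction), with 65 dph on the left and 20 dph on the right of the line. Liver and skeletal muscle stand out in 20 dph replicate 1 (13965 and 1048 CPM), exocrine pancreas in 20 dph replicates 2 and 1, and interferon-stimulated genes in 65 dph replicate 3 (1708 CPM).

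Lymphocyte genes were higher at 65 dph. Of 18 tested T cell and cytotoxic genes 14 were higher and 1 lower, with a median of 1.67, and 13 higher and 0 lower without 20 dph replicate 1. The coreceptor of cytotoxic T cells, cd8a, had 6.66, 5.46, 8.3, 7.63 and 5.15 CPM at 65 dph, against 0.143, 0.627, 0.109, 0.488 and 0 CPM at 20 dph (log2 fold change 4.54 ± 0.54, adjusted p = 7.38e-06). Its lowest older library was more than 8-fold above its highest younger one, and 1 younger library held no count. The integrin itgae.2, of a family that anchors lymphocytes to epithelium in mammals, had 39, 34.7, 49.5, 45.7 and 28.8 CPM at 65 dph, against 11.8, 18.3, 13.6, 15.8 and 15.4 CPM at 20 dph (log2 fold change 1.40 ± 0.17, adjusted p = 8.13e-06). The T cell transcription factor tcf7 (log2 fold change 2.03 ± 0.24, adjusted p = 6.85e-06), the effector factor eomesa (log2 fold change 2.59 ± 0.58, adjusted p = 0.00204) and perforin prf1 (log2 fold change 2.55 ± 0.28, adjusted p = 3.82e-06) rose, each with groups apart. The perforin copy prf1.3 was -1.63 and did not pass (adjusted p = 0.154).

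The 2 copies of foxp3, the factor that defines regulatory T cells in mammals, went in opposite directions. The copy foxp3-2 had 5.55, 5.46, 5.24, 7.75 and 3.75 CPM at 65 dph, against 1.29, 0.501, 0.218, 2.07 and 1.6 CPM at 20 dph (log2 fold change 2.28 ± 0.58, adjusted p = 0.00485), with no overlap. The copy foxp3-1 had 11.2, 9.61, 12.2, 12.9 and 9.84 CPM at 65 dph, against 17.2, 16.2, 12.7, 15.6 and 13 CPM at 20 dph (log2 fold change -0.42 ± 0.13, adjusted p = 0.0206), and its groups overlapped. The call of foxp3-1 was lost without 20 dph replicate 1 (-0.37), 65 dph replicate 2 (-0.37) or 65 dph replicate 5 (-0.39), and its sign turned on unscaled TPM (0.14), where it was not called. Reads that fit both copies are divided between them, so the level of each is uncertain. Replicate 3 was the highest 65 dph library in 12 of 18 members of the T cell list. Among B cell genes 4 of 8 were higher and 0 lower (3 higher without 20 dph replicate 1), including the receptor chain cd79b (log2 fold change 1.83 ± 0.43, adjusted p = 0.00295).

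Genes of class I antigen presentation were called in both directions. Of 12 tested class I genes 7 were higher and 4 lower, or 6 and 4 without 20 dph replicate 1. Those that rose included the class I activator nlrc5, with 10.3, 9.91, 17.9, 20.3 and 12.6 CPM at 65 dph, against 1.29, 2.51, 4.68, 2.07 and 2.83 CPM at 20 dph (log2 fold change 2.39 ± 0.27, adjusted p = 4.4e-06). They also included the peptide transporter tap1 (log2 fold change 0.79 ± 0.16, adjusted p = 0.000899) and the loading factor tapbpl (log2 fold change 1.70 ± 0.38, adjusted p = 0.00215). In each of these the groups were apart. Among those that fell was calreticulin calr, a general chaperone of the endoplasmic reticulum and a member of the folding list too, with 77.8, 66.1, 40.01, 39.9 and 25.9 CPM at 65 dph, against 188, 112, 113, 138 and 228 CPM at 20 dph (log2 fold change -1.64 ± 0.31, adjusted p = 0.000514). Another was the proteasome activator psme2 (log2 fold change -0.43 ± 0.12, adjusted p = 0.0111), which was 0.021 on unscaled TPM and not called there. The class II invariant chain cd74b rose, with 95.2, 76.6, 85.9, 76.6 and 76.7 CPM at 65 dph, against 17.6, 50.8, 16, 27.1 and 37.5 CPM at 20 dph (log2 fold change 1.46 ± 0.27, adjusted p = 0.000434).

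Myeloid genes and cytokines were higher in part. The lectin cd209, found on macrophages and dendritic cells, had 20.7, 132, 95.8, 149 and 84 CPM at 65 dph, against 37.3, 11.9, 27, 10.4 and 3.69 CPM at 20 dph (log2 fold change 2.42 ± 0.67, adjusted p = 0.00923). Replicate 1 was the lowest older library and overlapped the younger range, in which replicate 1 was highest. The oxidase subunit ncf1 rose as well (log2 fold change 1.22 ± 0.32, adjusted p = 0.00635), and 4 of 11 tested macrophage and dendritic cell genes were higher with 0 lower. Of 23 tested cytokines, chemokines and receptors, 11 were higher and 1 lower, or 10 and 1 without 20 dph replicate 1. The chemokine cxcl8c, which draws neutrophils, had 10.9, 16.1, 6.12, 4.17 and 15 CPM at 65 dph, against 0.43, 0.125, 0.654, 0.853 and 0.123 CPM at 20 dph (log2 fold change 4.53 ± 0.64, adjusted p = 3.65e-05). The cytokine il17d had 1.28, 1.11, 0.748, 1.55 and 2.93 CPM at 65 dph, against 0, 0.251, 0, 0.122 and 0.123 CPM at 20 dph (log2 fold change 3.76 ± 0.99, adjusted p = 0.00629), which is a small number of reads. Interleukin 15, which sustains lymphocytes of the gut lining in mammals, rose together with its receptor chain. The values of il15 were 8.29, 6.68, 9.53, 7.51 and 6.56 CPM at 65 dph, against 3.87, 5.64, 4.47, 5.49 and 4.06 CPM at 20 dph (log2 fold change 0.71 ± 0.18, adjusted p = 0.00548), and il15ra changed alike in sign (log2 fold change 1.91 ± 0.40, adjusted p = 0.00114). The growth factor tgfb2 fell (log2 fold change -1.05 ± 0.31, adjusted p = 0.014).

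Interferon-stimulated genes, an antiviral set, were higher in 13 of 26 tested members and lower in 0, and in 10 and 0 without 20 dph replicate 1. The helicase helz2a had 74.1, 28.2, 272, 95.8 and 119 CPM at 65 dph, against 2.01, 4.01, 8.06, 5.36 and 3.44 CPM at 20 dph (log2 fold change 4.67 ± 0.57, adjusted p = 9.68e-06). The antiviral GTPase mx2 had 6.92, 2.33, 8.5, 1.31 and 2.23 CPM at 65 dph, against 0.86, 0.627, 1.2, 0.61 and 0 CPM at 20 dph (log2 fold change 2.67 ± 0.73, adjusted p = 0.00821). Replicate 3 was the highest older library for both. A gene outside the list but among the widest changes, parp14rs3, of a family of ADP-ribosyltransferases, had 10.6, 2.53, 24.2, 19 and 15.3 CPM at 65 dph, against 0.143, 0.125, 0.109, 0.488 and 0 CPM at 20 dph (log2 fold change 6.26 ± 0.79, adjusted p = 1.38e-05). The antiviral gene vig-2 had 4.27, 6.27, 18.4, 3.7 and 5.27 CPM at 65 dph, against 0.143, 1.38, 0.654, 0 and 2.46 CPM at 20 dph (log2 fold change 3.02 ± 0.73, adjusted p = 0.00384). Replicate 3 was the highest 65 dph library for parp14rs3 and vig-2 as well, and for 20 of 26 list members. The sensor ifih1 (-0.11, adjusted p = 0.612) did not pass.

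Connective tissue and its signals were higher at 65 dph, most so in 1 library. Of 16 tested fibroblast and matrix genes 8 were higher and 1 lower, 8 and 0 without 20 dph replicate 1. The higher calls numbered 5 without 20 dph replicate 2 or 5, or 65 dph replicate 2 or 5. Thrombospondin thbs4a, a matrix protein, had 2.65, 2.93, 1.97, 3.22 and 6.91 CPM at 65 dph, against 0.573, 0.376, 0.436, 0.366 and 0.369 CPM at 20 dph (log2 fold change 3.02 ± 0.54, adjusted p = 0.000304). The membrane collagenase mmp14b had 24.5, 36.1, 20.1, 22.8 and 51.5 CPM at 65 dph, against 14.3, 12.4, 12.4, 10.2 and 9.34 CPM at 20 dph (log2 fold change 1.40 ± 0.37, adjusted p = 0.00654). The collagen-binding sparc rose (log2 fold change 1.08 ± 0.30, adjusted p = 0.00958), with overlap of the groups. The collagen col1a1 was 0.62 and did not pass (adjusted p = 0.114), while the copy col1a1b was called higher. Replicate 5 was the highest 65 dph library in 14 of 16 members, and in 6 of 9 smooth muscle genes, of which 3 rose, synpo2b among them (log2 fold change 0.85 ± 0.24, adjusted p = 0.0103), and 1 fell. The smooth muscle genes called higher numbered 2 without 20 dph replicate 1 and 1 without 65 dph replicate 2 or 65 dph replicate 5. The complement gene c7a, which is made by stromal cells in mammals, rose (log2 fold change 1.95 ± 0.35, adjusted p = 0.000391) and was also highest in replicate 5.

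Signals that pattern the gut wall were higher in part. In the list of Wnt, Notch, BMP and Hedgehog genes 8 of 21 tested members were higher and 1 lower, with 6 and 1 without 20 dph replicate 1. The higher members include tcf7, which is counted in the T cell list as well. The BMP antagonist grem1b, a product of cells beneath the crypts in mammals, had 31.3, 56.6, 17.7, 41.4 and 45 CPM at 65 dph, against 4.3, 4.39, 6.86, 6.09 and 3.07 CPM at 20 dph (log2 fold change 2.95 ± 0.31, adjusted p = 2.32e-06). The Hedgehog target gli1 had 1.2, 1.42, 1.5, 1.31 and 3.75 CPM at 65 dph, against 0, 0.125, 0.327, 0.61 and 0.246 CPM at 20 dph (log2 fold change 2.72 ± 0.66, adjusted p = 0.00373). The Wnt enhancer rspo1 (log2 fold change 1.13 ± 0.28, adjusted p = 0.00385) and the ligand bmp5 (log2 fold change 1.23 ± 0.33, adjusted p = 0.00669) rose. The receptor notch1 fell (log2 fold change -0.87 ± 0.26, adjusted p = 0.0149). Replicate 5 was the highest 65 dph library for gli1, rspo1 and bmp5 and in 13 of 21 members, but not for grem1b.

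Hormone genes of the gut moved one by one. A cholecystokinin gene named cck-n, whose hormone releases bile and pancreatic juice, had 0, 0.202, 0, 0 and 0 CPM at 65 dph, against 4.73, 9.65, 0.654, 2.68 and 1.11 CPM at 20 dph (log2 fold change -6.18 ± 1.1, adjusted p = 0.00032). It was read in a single older library, and replicate 2 was the highest younger one. The opioid precursor pdyn had 2.48, 0.911, 1.84, 1.31 and 1.76 CPM at 65 dph, against 5.88, 6.27, 3.6, 3.54 and 17.6 CPM at 20 dph (log2 fold change -2.13 ± 0.60, adjusted p = 0.00974), highest in replicate 5 of the younger group. The gene tph2, an enzyme of serotonin synthesis, rose (log2 fold change 1.31 ± 0.36, adjusted p = 0.00812). The granule protein chga, a general marker of hormone cells, did not pass (-0.06, adjusted p = 0.967). In all, 3 of 14 tested members were lower and 1 higher, or 4 and 1 without 20 dph replicate 1, which is near the background. In the nerve list 4 of 9 were higher and 0 lower, including the enteric neuron factor phox2a (log2 fold change 1.65 ± 0.48, adjusted p = 0.0123). The count was 2 without 20 dph replicate 1, 65 dph replicate 2 or 65 dph replicate 5.

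Among regulators of the epithelium the bile acid feedback receptor nr0b2a (SHP) rose, with 113, 79.1, 145, 86.6 and 157 CPM at 65 dph, against 26.7, 27.1, 35.7, 19.5 and 19.1 CPM at 20 dph (log2 fold change 2.18 ± 0.37, adjusted p = 0.000229). The epithelial factor ehf also rose (log2 fold change 1.16 ± 0.34, adjusted p = 0.012), with groups apart. Of 19 tested transcription factors 5 were higher and 1 lower, with 2 higher without 20 dph replicate 2, 3 without 65 dph replicate 2 and 4 without 20 dph replicate 1. Lysosomal genes were higher in 7 of 18 and lower in 1, or in 7 and 2 without 20 dph replicate 1. The cystine exporter ctns had 22.6, 22, 38.8, 32.1 and 20.4 CPM at 65 dph, against 3.44, 3.51, 5.12, 7.31 and 5.16 CPM at 20 dph (log2 fold change 2.46 ± 0.29, adjusted p = 6.74e-06). The lysosomal membrane protein cd63 (log2 fold change 1.07 ± 0.19, adjusted p = 0.000324) and the cathepsin ctsh (log2 fold change 1.13 ± 0.23, adjusted p = 0.000961) rose as well. The most abundant member, ctsbb, did not pass (0.34, adjusted p = 0.28). In the goblet cell and mucus list the 2 members that rose, of 4 tested, were copies of the ligand of the kit receptor, which is no mucus gene, among them kitlga (log2 fold change 1.49 ± 0.25, adjusted p = 0.000177).

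Of the tested genes of vessels and red cells 4 of 14 were higher and 2 lower, or 4 and 1 without 20 dph replicate 1, with hemoglobin among the widest increases. The chain hba1 had 69.5, 76.4, 57.6, 91.3 and 88.3 CPM at 65 dph, against 2.58, 0.752, 3.27, 6.83 and 0.738 CPM at 20 dph (log2 fold change 4.74 ± 0.55, adjusted p = 6.93e-06). The chain hbb1 had 28.6, 26.8, 19.8, 29.1 and 38.9 CPM at 65 dph, against 2.58, 4.26, 4.14, 7.44 and 1.35 CPM at 20 dph (log2 fold change 2.85 ± 0.41, adjusted p = 4.58e-05). The heme synthesis enzyme alas2 of red cells was -0.19 and did not pass (adjusted p = 0.722), and the red cell carbonic anhydrase cahz fell (log2 fold change -1.34 ± 0.34, adjusted p = 0.00494). The vessel protein plvapa rose, with 71.4, 114, 59.4, 50.9 and 105 CPM at 65 dph, against 38.7, 36.2, 28.8, 42.5 and 27.7 CPM at 20 dph (log2 fold change 1.2 ± 0.25, adjusted p = 0.00117).

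Clock genes were higher in 7 of 17 tested members and lower in 0, with the same counts without 20 dph replicate 1. The activator npas2 had 6.66, 6.27, 9.66, 10.1 and 11.2 CPM at 65 dph, against 2.44, 0.877, 2.51, 1.58 and 0.615 CPM at 20 dph (log2 fold change 2.45 ± 0.47, adjusted p = 0.000631). The repressors bhlhe41 (log2 fold change 1.31 ± 0.26, adjusted p = 0.000855) and nr1d4b (log2 fold change 0.97 ± 0.18, adjusted p = 0.000391) rose as well, with groups apart. The labels give no hour of sampling, so the hour and the age cannot be told apart. In the growth hormone and IGF list 5 of 27 were higher and 1 lower, with 2 or 3 lower when 20 dph replicate 4 or 5 or 65 dph replicate 3 or 5 was left out. The binding protein igfbp5 rose (log2 fold change 1.78 ± 0.45, adjusted p = 0.00512; 2.49 without 20 dph replicate 1). The growth factor gene igf1 was -0.11 (adjusted p = 0.895) with all libraries and 1.06 (adjusted p = 0.0148) without 20 dph replicate 1. That library held 36.7 CPM of igf1 against 3.13 to 7.19 CPM in the other 4.

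Further genes among the widest increases were syt5a, a synaptotagmin of vesicle release (log2 fold change 3.86 ± 0.48, adjusted p = 1.08e-05), and myoc, a secreted olfactomedin protein (log2 fold change 3.79 ± 0.56, adjusted p = 5.44e-05). Another was klhl24a, an adaptor of protein degradation, with 19.5, 24.9, 54.6, 39.6 and 37.1 CPM at 65 dph, against 4.44, 3.51, 2.83, 4.51 and 3.44 CPM at 20 dph (log2 fold change 3.23 ± 0.44, adjusted p = 3.13e-05). In each of them the groups did not overlap, which the rule for naming the widest changes required.

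Several of the widest decreases rest on 20 dph replicate 1. There were 41 symbol genes above 20 CPM in that library and more than 10 times every other 20 dph library, and 37 of them were called lower at 65 dph. They included 7 of the liver list, 3 of the muscle list and 4 complement genes. The terminal complement gene c9, made by liver, had 0.94, 0.405, 0.612, 0.477 and 1.64 CPM at 65 dph, against 997, 0.627, 0.218, 0.853 and 0.123 CPM at 20 dph (log2 fold change -7.94 ± 1.98, adjusted p = 0.0046). Without replicate 1 it was 0.82 (adjusted p = 0.398). The protease inhibitor antiprot1 had 28.9, 27.2, 17.8, 20.03 and 10.8 CPM at 65 dph, against 8616, 44, 43.6, 37.9 and 37.6 CPM at 20 dph (log2 fold change -6.39 ± 1.46, adjusted p = 0.0025), and without replicate 1 it was -0.96 (adjusted p = 0.0464). The heme carrier hpxb was -6.92 with it and 1.74 without (adjusted p = 0.333), and the muscle light chain myl1 -5.92 and 2.21 (adjusted p = 0.153). Prothrombin f2 (-6.61 and -3.75), ambp (-4.91 and -2.07) and the complement factor cfbl (-6.69 and -3.71) were called both ways, the last 3 with adjusted p of 0.00405, 0.0209 and 0.00463 without it.

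In hsc70 the direction turned the other way, and a call appeared without that library. The chaperone hsc70 had 6.32, 5.46, 7.08, 10.02 and 8.9 CPM at 65 dph, against 48.3, 1.25, 0.763, 0.731 and 0.369 CPM at 20 dph (log2 fold change -0.43, adjusted p = 0.751), and 3.25 (adjusted p = 5.45e-06) without replicate 1. In the liver list 9 of 11 tested members were called lower with all libraries and 4 without it, in the muscle list 3 of 5 and 0, and in the complement list 5 of 12 and 0. The complement count was 3 without 65 dph replicate 1, 2, 3 or 5. Of 2365 symbol genes called in all, 284 lost the call without the library, 117 higher and 167 lower, and 51 moved by more than 1 on the log2 scale. Calls also fell without any other library of 20 dph. Over all features 4908 were higher and 5411 lower without replicate 1. Without another 20 dph library, 4475 to 4846 were higher and 5262 to 5621 lower. Among the lists described above, those of the respiratory chain, fatty acid oxidation, cholesterol synthesis, cell cycle and clock kept their counts without 20 dph replicate 1.

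**Figure D4:**
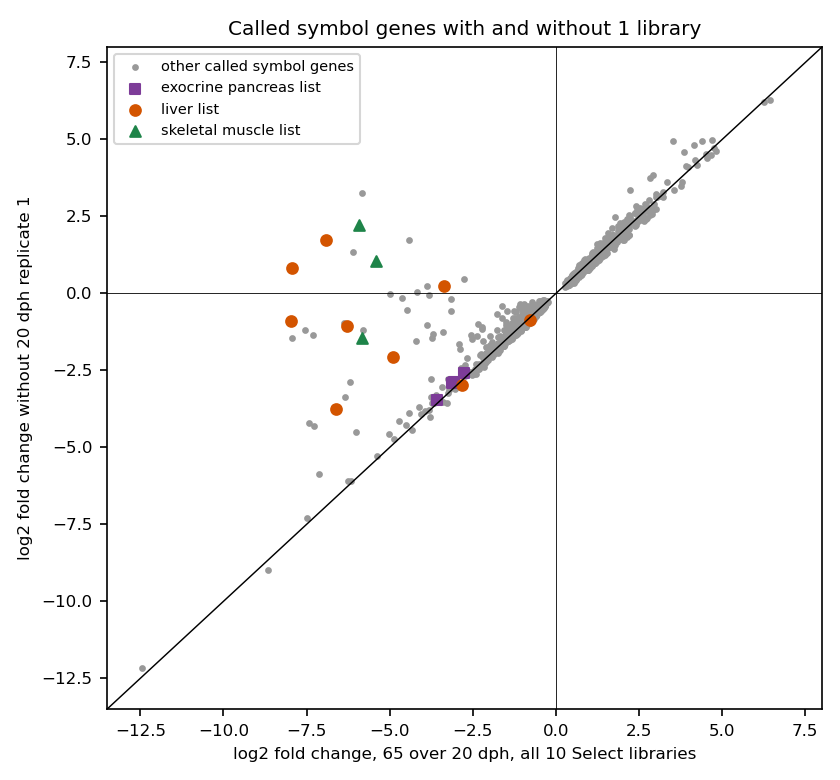
Log2 fold change of the 2365 symbol genes called in Select, with all libraries (horizontal) and without 20 dph replicate 1 (vertical); each point is a gene, lists of liver, skeletal muscle and exocrine pancreas are marked, and the diagonal marks equal values. Most genes lie on the diagonal, while 51 moved by more than 1 and 11 changed sign, liver and muscle genes among them.

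The change with age was then set beside that of the Commercial strain. The strains share no library, but they were fitted together with a shared estimate of spread, so their calls are not independent. The difference between the 2 age effects was tested for every feature, and 0 of 32166 (0%) were called by edgeR, with 1781 at an unadjusted p under 0.05 (5.54%) and 97 called by DESeq2. Without 1 library at a time, edgeR gave 1539 to 3194 features at that unadjusted threshold. The number was 3194 of 32961 without Commercial 65 dph replicate 2 and 2278 of 33171 without Select 20 dph replicate 1. Without the 2 alike libraries it was 2608 of 32498. Of 5297 symbol genes tested, 2365 were called in Select and 2059 in Commercial. In both strains and in the same direction 1670 were called, 70.6% of the Select calls and 81.1% of the Commercial calls. The overlap that such large shares would give by chance was not computed. A single gene was called in opposite directions, pfc (properdin, a complement factor, named after its values were seen), at -2.76 in Select and 3.65 in Commercial. Its value in Select 20 dph replicate 1 was 121 CPM against 1.22 to 5.01 CPM in the other 4, and without that library it was 0.48 (adjusted p = 0.596). Its call was also lost without any 1 of the 5 Select 65 dph libraries (log2 fold change -2.98 to -2.59). The water channel aqp8a.2 rose by 6.43 in Select and 3.45 in Commercial, a difference of 2.98 ± 1.41 that did not pass the adjustment (adjusted p = 0.887). For grem1b the values were 2.95 and 1.89 (difference 1.05 ± 0.41, adjusted p = 0.881), and for chia.1 -7.49 and -11.09 (difference 3.60 ± 1.55, adjusted p = 0.886). A p that misses the threshold does not show that the strains changed alike.

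**Figure D5:**
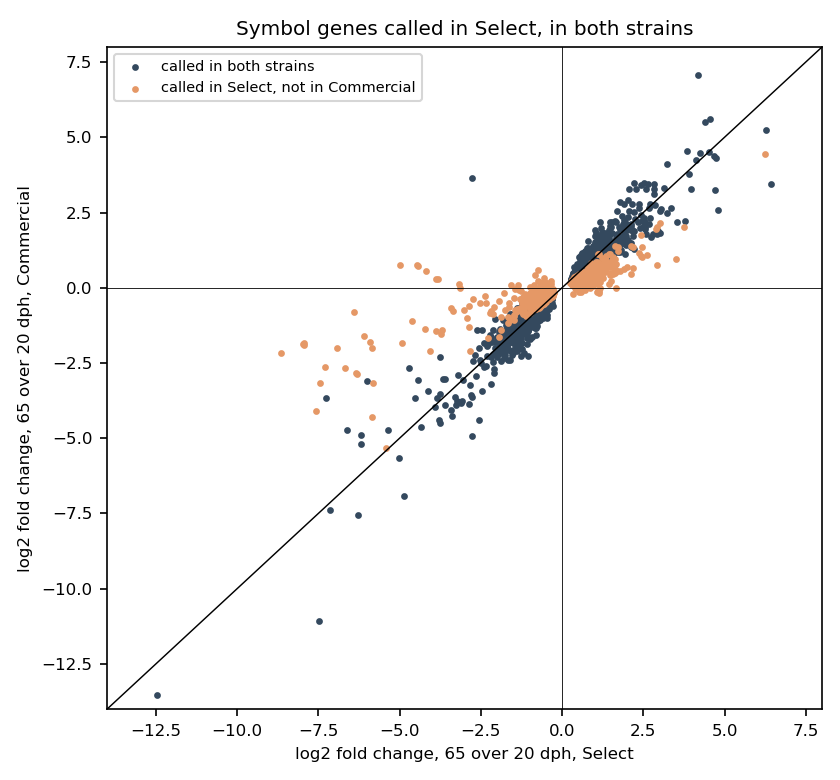
Log2 fold change from 20 to 65 dph of the symbol genes called in Select, in Select (horizontal) and in Commercial (vertical); dark points were called in both strains and orange points in Select and not in Commercial, and the diagonal marks equal values. Of the 2365 genes 1670 were called in both strains in the same direction and 1 in opposite directions.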

How the data were processed

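RNA of whole intestines was sequenced as poly(A)-selected, stranded, paired-end libraries, per the labels' protocols. The authors quantified transcripts with Salmon 1.2.1, per the submitters' processing notes, and deposited for each library an estimated count per transcript (expected counts, of which 34.3% are not whole at a tolerance of 1e-06) and TPM, per the file headers. Neither the release of the transcript set nor the genome build is given in the sources used here. Salmon divides reads that fit several transcripts, so near-identical copies, frequent in trout, share reads in proportions that are estimates.

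Expected counts were summed per gene through the RefSeq table of assembly USDA_OmykA_1.1, used for names only, which matched 42376 of 78931 transcripts. The other 36555 were kept as features of their own, and sums were rounded to whole numbers. The test was edgeR 4.0.16 (R 4.3.3): TMM scaling, filtering by group, 4 group means over all 20 libraries and robust quasi-likelihood F-tests, with Benjamini-Hochberg adjustment over 32166 features. Standard errors are the log2 fold change divided by the square root of F. CPM use the TMM-scaled totals. The difference between the age effects was tested as an interaction in that model. The procedure was first tested on simulated data. Alternatives used limma 3.58.1 on log2(TPM + 0.1), DESeq2 1.42.0 and the settings in the closing section.

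Libraries were grouped by the strain and age of the labels. Gene lists and comparisons were chosen with earlier results of these data known. Named genes follow a rule: the 15 widest increases and decreases among called symbol genes without overlap of the groups and with log2 CPM averaging 1 or more, up to 6 called members per list and direction by adjusted p, members without a call as examples, and the 10 symbol genes with the highest mean TPM at each age. The first of these was also applied without 20 dph replicate 1, which gave hsc70. Chosen after their values were seen, beyond that rule, were aurka, birc5a, bysl, eomesa, foxp3-2, gapdh, hpxb, il17d, insig1, itgae.2, mcm7, mx2, nat10, ndufc1, pfc, rps8a, sdhb, srebf2 and tk1. Promoter motifs were not analysed here. Counting error sets the precision of single low values, and the spread between libraries that of the tests.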

Additional observations from a re-analysis of the deposited data

Results flagged for a closer look

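In each group of 5 libraries, the gap between the highest or lowest library and its nearest neighbour was compared with the range of the group. For the named genes 298 groups were tested, and 36 had a gap above the critical share of 0.71. With normally distributed values chance gives about 1 in 20 groups. The CPM used here need not be normal. The genes were partly chosen for wide changes and share the same libraries, so the 36 are a description and not a test against chance.

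In 13 of the 36 the highest library was 20 dph replicate 1. Its values were 8616 CPM for antiprot1, 6647 CPM for apoa2, 1213 CPM for hpxb, 997 CPM for c9, 755 CPM for f2 and 728 CPM for apoba, genes that the liver expresses. They were 345 CPM for ambp, 245 CPM for cfbl, 183 CPM for myl1, 121 CPM for pfc, 48.3 CPM for hsc70, 36.7 CPM for igf1 and 8.6 CPM for igfbp5. The same library was the lowest of the 20 dph group for the epithelial genes vil1 (1871 CPM) and cdx1 (5.16 CPM) and for the transporters slc31a1 (313 CPM) and abcg8 (163 CPM).

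Replicate 2 was the high library at 20 dph for the mitochondrial genes ndufs3 (71.7 CPM), atp5mc3b (179 CPM) and suclg1 (341 CPM). Replicate 5 was high at 20 dph for stard4 (95.9 CPM) and pdyn (17.6 CPM) and low for aurka (18.8 CPM) and c7a (15.9 CPM).

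At 65 dph, replicate 3 was high for the interferon-stimulated vig-2 (18.4 CPM), for prf1 (7.08 CPM), for chia.1 (16.9 CPM) and for ggps1 (8.03 CPM). Replicate 5 was high for thbs4a (6.91 CPM) and gli1 (3.75 CPM) and low for ctsbb (2781 CPM). Replicate 1 was high for fabp2 (4030.0 CPM), vil1 (2867 CPM) and ndufc1 (22.2 CPM), and replicate 2 for apoa2 (25.1 CPM) and cck-n (0.202 CPM).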

How the results depend on the processing

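Without 1 Select library at a time, 4442 to 4919 features were called higher and 5237 to 5621 lower, against 5264 and 5755 with all. The counts were within 1.5 times of these under every other setting run except unscaled TPM (12043 higher, 2528 lower). The replicate number as a block gave 5090 higher and 5446 lower. Deviations of same-numbered libraries correlated at -0.078 to 0.04 and 1 of 5 libraries at 65 dph correlated best with its own number. These values showed no pairing of the ages by number. Whether the numbers stand for a shared batch was not tested. Under the block c9, hpxb, myl1, antiprot1 and pfc lost their calls. The count of strain differences was 0 to 2 without 1 library at a time, 2 without the 2 alike libraries, 1 when 20 dph replicate 1 was left out as well (a setting added after seeing the data), 97 with DESeq2 and 0 under the block. Of 127 called genes whose fold change the text gives, 112 kept their call and sign in all settings run. That tally leaves out genes named without a fold change, such as ela2l, pla2g1b, ggt1b, ggt5a, enpep and asah2. Of 78 list counts, 24 stayed within 1.5 times in all settings, and unscaled TPM moved 43 beyond that, each toward more higher or fewer lower calls.

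Directions turned in a few genes. Without Select 20 dph replicate 1 the log2 fold change was 1.06 for igf1, 0.82 for c9, 1.74 for hpxb, 3.25 for hsc70, 2.21 for myl1 and 0.48 for pfc, the highest values without any 1 library; the lowest were -0.43, -8.31, -7.28, -0.75, -6.26 and -3.07. Without the 2 alike libraries too it was 1.13 for igf1, 1.81 for hpxb, 3.19 for hsc70, 2.45 for myl1 and 0.50 for pfc. On unscaled TPM it was 0.44 for npm1b, 0.14 for foxp3-1, 0.021 for psme2 and 2.34 for hsc70. The cause was not tested. DESeq2 gave no adjusted p for c9, hpxb, myl1, antiprot1 and pfc. Genes with few counts, such as cck-n, il17d and gli1, are limited by depth.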

Other observations

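Some lists of the epithelium and of innate defence were not described above. Of 13 tested genes of junctions, keratins and the brush border skeleton 1 was called higher and 0 lower, with a median log2 fold change of -0.10 that was 0.36 on unscaled TPM. Without 20 dph replicate 1 the counts were 1 and 1. The member that rose was cdhr5b, a cadherin that links microvilli to each other in mammals, with 1039, 889, 1037, 828 and 708 CPM at 65 dph, against 324, 488, 570.2, 519 and 345 CPM at 20 dph (log2 fold change 1.00 ± 0.17, adjusted p = 0.00018), so that the groups were apart. Innate sensing and antimicrobial genes were higher in 4 of 15 and lower in 1, or 4 and 0 without 20 dph replicate 1. The sensor of bacterial wall fragments nod2 had 3.08, 2.83, 2.79, 2.62 and 2.34 CPM at 65 dph, against 1.86, 1.5, 1.63, 1.34 and 0.492 CPM at 20 dph (log2 fold change 1.00 ± 0.30, adjusted p = 0.015). Of granulocyte and mast cell genes 1 of 7 was higher and 0 lower, the neutrophil protease mmp25a (log2 fold change 1.54 ± 0.39, adjusted p = 0.00503), which was highest in 65 dph replicate 5.

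A pair of genes of lipid-binding proteins fell as well. The retinoid-binding protein rbp7b, among the widest decreases, had 0.769, 1.72, 0.612, 1.07 and 2.58 CPM at 65 dph, against 48.6, 27.1, 16, 17.3 and 7.5 CPM at 20 dph (log2 fold change -4.13 ± 0.52, adjusted p = 1.38e-05; -3.68 without 20 dph replicate 1). The acyl-CoA binding protein acbp, one of the most abundant transcripts at 20 dph, had 576, 451, 636, 599.8 and 579.6 CPM at 65 dph, against 1202, 1677, 1223, 991 and 1459 CPM at 20 dph (log2 fold change -1.2 ± 0.15, adjusted p = 1.02e-05). Every older library lay below every younger one in both genes, which the rule for naming the widest changes required of rbp7b. The neurofilament gene nefma of nerve cells had 3.08, 2.83, 3.27, 4.41 and 3.63 CPM at 65 dph, against 1.86, 1.38, 1.85, 2.44 and 2.58 CPM at 20 dph (log2 fold change 0.76 ± 0.23, adjusted p = 0.0164), again without overlap.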
